A study of Mus musculus with 12 samples.

Results

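The major urinary protein genes (Mup genes) examined here are 10 protein-coding genes of the Mup cluster on mouse chromosome 4: Mup7, Mup1, Mup11, Mup12, Mup16, Mup18, Mup19, Mup20, Mup3 and Mup21, in the order in which they lie. They were taken by symbol from a table of 56748 genes, and all 10 were among the 14003 genes that passed the filter on low counts and were tested. They were chosen by measured values, the log2 fold changes between knockout and wild type females, where several of them stood among the largest differences, so that comparison is described here and not tested. The cluster runs from 60066469 to 62069100 on chromosome 4 (mm39), and all 10 genes lie on its minus strand. The table also holds 12 other Mup genes and 27 Mup pseudogenes.

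Poly(A) RNA from whole liver was sequenced in 12 libraries, 3 biological replicates in each of 4 groups of mice aged 16 weeks that were co-housed on normal chow. The groups were male knockout, male wild type, female knockout and female wild type. Knockout mice (KO) were of the line 129/Sv-Cyp2e1tm1Gonz/J, which carries a targeted allele of the cytochrome P450 gene Cyp2e1 in all tissues, and wild type mice (WT) were 129S1/SvImJ, so that each comparison of KO with WT is also a comparison of 2 lines. Cyp2e1 had 230 to 323 CPM in female KO and 318 to 403 CPM in male KO libraries, against 6213 to 7076 CPM in female WT and 10374 to 11480 CPM in male WT libraries, which matches the labels. CPM is a gene's count relative to the library total, scaled by the trimmed mean of M-values (TMM). Totals ran from 15167730 to 25082532 counts. The 8 hepatocyte markers measured summed to between 70963 and 111591 CPM in every library. Markers of salivary and lacrimal gland, pancreas and fat, tissues that include other sites of Mup expression, summed to at most 10.2 CPM, and 5 of those 10 genes were at 0 in every library. In bulk liver, fewer cells of a type and less RNA per cell cannot be told apart.

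Major urinary proteins are small secreted lipocalins, proteins that fold into a barrel around a hydrophobic pocket. In the mouse they are made mainly by hepatocytes, pass through the blood into urine, and there bind volatile pheromones and release them slowly, and the mixture of isoforms serves as an individual scent signature. Their transcription in liver is classically higher in males and depends on the pulsatile secretion of growth hormone acting through the receptor GHR, the kinase JAK2 and the transcription factor STAT5B, with androgens, thyroid hormone and glucocorticoids acting on top. The family has a central group of nearly identical genes, to which Mup1, Mup7, Mup11, Mup12, Mup16, Mup18 and Mup19 belong, and a peripheral group of more diverged genes, to which Mup3, Mup20 and Mup21 belong. Mup20 encodes darcin, the male urinary protein that attracts females.

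How far these genes can be told apart by short reads follows from their sequence, so a stretch of coding sequence is shown for both kinds of gene. The lines below give the same 60 bases of the coding sequence of GENCODE vM21 transcripts (GRCm38), 5′ to 3′, with capitals at the bases that differ from Mup12.
Mup20: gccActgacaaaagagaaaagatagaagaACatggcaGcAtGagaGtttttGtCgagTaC
Mup3: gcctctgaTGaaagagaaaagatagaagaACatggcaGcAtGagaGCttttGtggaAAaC
Mup21: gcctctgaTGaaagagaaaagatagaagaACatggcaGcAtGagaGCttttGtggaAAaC
Mup12: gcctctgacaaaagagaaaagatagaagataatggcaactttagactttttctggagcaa
Mup16: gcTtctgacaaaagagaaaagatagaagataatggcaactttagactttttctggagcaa
Mup18: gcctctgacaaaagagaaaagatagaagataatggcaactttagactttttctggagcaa
In this stretch Mup20 differs from Mup12 at 11 bases, Mup3 and Mup21 at 13 bases each, Mup16 at 1 base and Mup18 at 0 bases. Over the whole coding sequence the 7 central members were at least 98.3% identical to each other, Mup3 and Mup21 were 94.7% identical, and the nearest relative of Mup20 among the Mup genes was Mup11 at 91.3%. Of all 100-base windows of the transcript, 0% in Mup20, 2.94% in Mup3 and 4.50% in Mup21 also occur in another Mup gene. In the 7 central members that share ran from 77.5% in Mup12 to 100% in Mup19. A read from a central member can therefore fit several genes. The rule by which the authors' counting divided such reads, or left them out, was not given in the sources used here. Values of Mup3, Mup20 and Mup21 depend least on that rule, and values of single central members are uncertain. The sum over all 10 genes does not depend on division among them, but it does on division with the 12 other Mup genes. If shared reads were left out of the counts, the sum also lacks those reads, mainly for the central members. Of those, Mup22 shares 100% and Mup15 97.3% of its windows with another Mup gene. The 10 genes held 65.6% to 94.0% of all Mup gene counts in a library. The annotation is that of the C57BL/6J reference, and the copies carried by the 129 lines may differ from it in number and sequence, which was not tested.

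Summed over the 10 genes, Mup transcripts were abundant in male liver and far scarcer in female liver. The sums were 35617, 66303 and 35678 CPM in the 3 male KO libraries and 35609, 39537 and 62607 CPM in the 3 male WT libraries. In females they were 485, 1001 and 1217 CPM in KO and 2173, 4825 and 3094 CPM in WT libraries. Every male library lay above every female library, the lowest male sum being 7.38 times the highest female sum, and in females every KO library lay below every WT library. As a share of all counts, the 10 genes held 3.55% to 6.04% in males and 0.0515% to 0.455% in females.

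The group means of the sum were 45866 ± 17699 CPM in male KO and 45918 ± 14586 CPM in male WT livers (SD, n = 3 each), a log2 ratio of -0.0016. They were 901 ± 376 CPM in female KO and 3364 ± 1347 CPM in female WT livers (SD, n = 3 each), a log2 ratio of -1.90. Between the sexes the log2 ratio of males over females was 5.67 in KO mice, a 50.9-fold difference, and 3.77 in WT mice, a 13.6-fold difference. The female KO and WT sums did not overlap, the lowest WT sum being 1.79 times the highest KO sum. No test was made on the sum, since its members were chosen with these values known. The ratio of KO to WT in females kept its sign in both kinds of gene when they were summed apart: it was -1.42 on the log2 scale for the 3 peripheral members, whose reads are distinct, and -2.22 for the 7 central members. In males the same ratios were 0.04 for the peripheral and -0.02 for the central members.

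**Figure D1:**
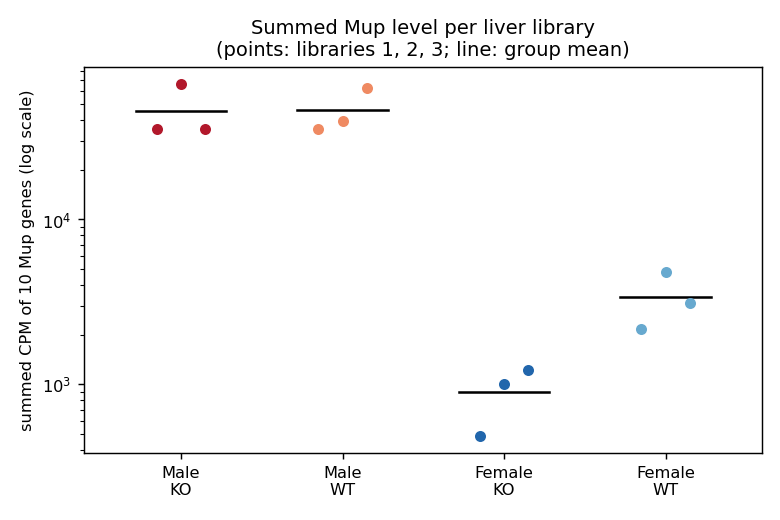
Summed CPM of the 10 Mup genes (log axis) in each liver library, by group, with the group mean as a line. The 6 male libraries lie between 35609 and 66303 CPM with KO and WT intermixed, and the 3 female KO libraries (485 to 1217 CPM) lie below the 3 female WT libraries (2173 to 4825 CPM).

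Most of these counts came from Mup7, Mup12 and Mup3, which together held 87.0% to 94.1% of the counts of the 10 genes in male libraries. Mup7, a central member at 60066469 to 60070475, had 10868, 26885 and 15898 CPM in male KO and 10014, 13199 and 24081 CPM in male WT libraries. In females it had 0.578, 110 and 255 CPM in KO and 1040, 164 and 438 CPM in WT libraries. The value of 0.578 CPM is 13 counts, in a female KO library where Mup12 still had 1900 and Mup3 7887 counts, and the range of Mup7 over the 6 female libraries, 1800-fold, was the widest of the 10 genes.

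Mup12, a central member at 60693382 to 60697325, had 14899, 14803 and 8498 CPM in male KO and 12882, 14375 and 19051 CPM in male WT libraries. Its values were 84.5, 386 and 391 CPM in female KO and 355, 1111 and 769 CPM in female WT libraries, so that the female groups overlapped by 1 WT library. Mup3, a peripheral member at 62001713 to 62005579, had 7732, 16015 and 7190 CPM in male KO and 10130, 7186 and 13636 CPM in male WT libraries. Its female values were 351, 421 and 471 CPM in KO and 566, 1534 and 1231 CPM in WT libraries, and there the groups did not overlap.

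The other peripheral members were less abundant and had at most 16.3 CPM in any female library. Mup20, the darcin gene at 61968471 to 61972395, had 408, 931 and 728 CPM in male KO and 563, 561 and 929 CPM in male WT libraries. In females it had 8.94, 4.77 and 5.28 CPM in KO and 10.7, 16.3 and 11.7 CPM in WT libraries. Mup21, at 62066169 to 62069100, had 1000, 1559 and 867 CPM in male KO and 760, 568 and 990 CPM in male WT libraries. Its female values were 2.31, 1.11 and 1.91 CPM in KO and 4.30, 3.70 and 5.15 CPM in WT libraries. Both genes were high in every male library and low in every female library, and in both the female KO values all lay below the female WT values while the male groups overlapped.

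Mup1, a central member at 60454011 to 60457959 whose product also circulates in blood, where it has been linked to glucose metabolism, had the steadiest male level of the 10 genes. It had 211, 230 and 217 CPM in male KO and 281, 240 and 205 CPM in male WT libraries, a 1.38-fold range over the 6. In females it had 2.58, 7.32 and 4.51 CPM in KO and 9.97, 20.5 and 18.0 CPM in WT libraries.

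The remaining 4 central members differed widely between libraries of one group. Mup16, at 61433829 to 61437768, had 182, 4026 and 2211 CPM in male KO and 590, 2281 and 1255 CPM in male WT libraries, and 21.6, 48.8 and 59.5 CPM in female KO against 127, 1273 and 220 CPM in female WT libraries. Mup18, at 61588414 to 61592373, had 4.80, 37.4 and 37.0 CPM in male KO and 29.2, 74.0 and 322 CPM in male WT libraries. It had 11.3, 16.8 and 24.5 CPM in female KO and 42.6, 692 and 242 CPM in female WT libraries, so that its highest value lay in a female library. A single female WT library, replicate 2, held the highest female values of both Mup16 and Mup18.

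Mup19, at 61696561 to 61700506, had 307, 1811 and 20.5 CPM in male KO and 355, 1041 and 1415 CPM in male WT libraries. In females it had 1.16, 2.08 and 1.06 CPM in KO and 12.0, 3.25 and 153 CPM in WT libraries, the high value being that of WT replicate 3. Mup11, at 60614465 to 60618410, had 5.07, 7.09 and 12.2 CPM in male KO and 4.07, 11.5 and 724 CPM in male WT libraries. Its female values were 1.60, 2.50 and 3.89 CPM in KO and 6.00, 6.82 and 5.08 CPM in WT libraries. Apart from male WT replicate 3, Mup11 was at or below 12.2 CPM in every library.

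**Figure D2:**
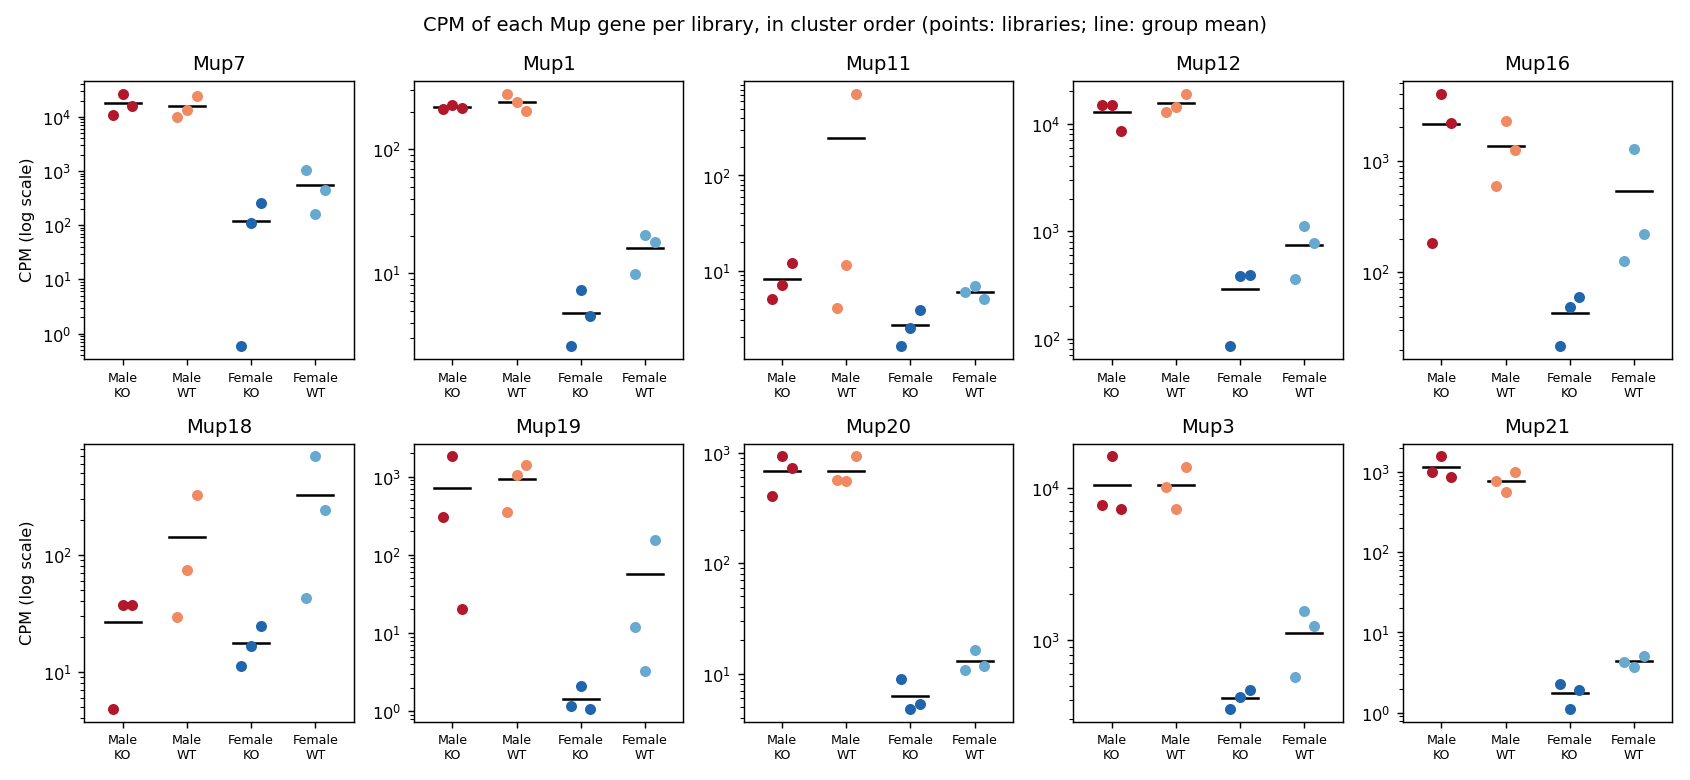
CPM (log axis) of each Mup gene in the 12 libraries, in cluster order, with the group mean as a line. For Mup1, Mup3, Mup7, Mup12, Mup20 and Mup21 all 6 male libraries lie above all 6 female libraries, whereas Mup11, Mup16, Mup18 and Mup19 each have libraries that stand far from the rest of their group, such as the 724 CPM of Mup11 in male WT replicate 3.

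Per kilobase of gene, the order of levels was nearly the same in both male groups and began differently in females. In male KO livers Mup7 (17312 CPM per kb), Mup12 (13751) and Mup3 (9656) came first with ranges that overlapped, and Mup3 lay clear of Mup16 in the fourth place (2061 CPM per kb). In male WT livers the first 3 places were held by Mup12 (16670 CPM per kb), Mup7 (15261) and Mup3 (9660), again overlapping one another and clear of Mup16 (1325). In female KO livers the order began with Mup3 (388 CPM per kb), Mup12 (310) and Mup7 (118), and in female WT livers with Mup3 (1040), Mup12 (805) and Mup7 (530), and neighbours within each set of 3 overlapped. In all 4 groups Mup16 held the fourth place, although in both female groups its range overlapped that of Mup7. Further down, the only neighbours whose ranges did not overlap were Mup21 over Mup20 and Mup1 over Mup18 in male KO, Mup20 over Mup11 in male WT, Mup18 over Mup20 and Mup20 over Mup1 in female KO, and Mup21 over Mup11 in female WT livers. Mup21 stood in the fifth place in both male groups, at 1687 CPM per kb in KO and 1141 CPM per kb in WT livers. It stood in the eighth place in female KO (2.62 CPM per kb) and in the ninth in female WT livers (6.47 CPM per kb).

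The shares of Mup7 and Mup3 in the counts of the 10 genes varied more between female than between male libraries. In males Mup7 held 28.1% to 44.6% of the counts of the 10 genes, Mup12 22.3% to 41.8% and Mup3 18.2% to 28.4%. In female KO libraries Mup3 held 72.3%, 42.1% and 38.7%, and in female WT libraries 26.1%, 31.8% and 39.8%, the lowest of which lies within the male range. Mup7 held 0.119%, 11.0% and 20.9% in female KO and 47.9%, 3.39% and 14.2% in female WT libraries, so that female WT replicate 1 lay above every male library. Mup21 held 1.44% to 2.81% in male libraries and 0.0767% to 0.477% in female libraries. In female WT replicate 2, Mup16 held 26.4% and Mup18 14.3% of the counts.

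**Figure D3:**
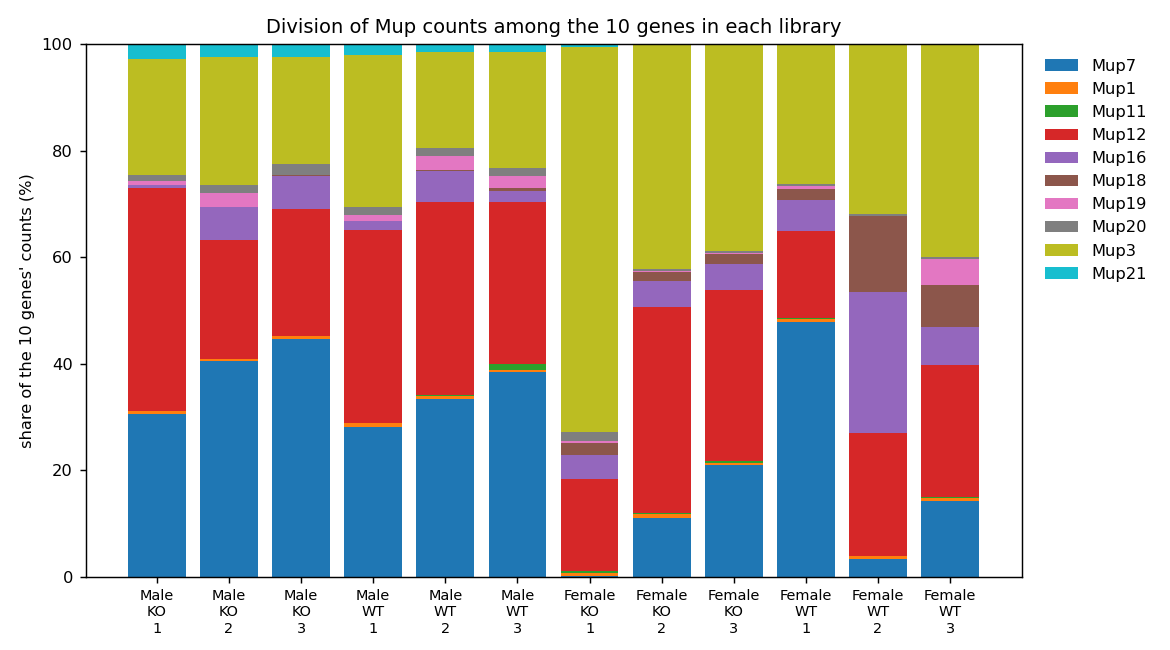
Share of the counts of the 10 Mup genes (percent, stacked to 100) held by each gene in each library. Male libraries resemble one another, with Mup7, Mup12 and Mup3 taking most of the counts, while female libraries vary, from 72.3% Mup3 in female KO replicate 1 to 47.9% Mup7 in female WT replicate 1.

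Spread among libraries differed between members with shared and with distinct sequence. Over the 6 male libraries, the highest CPM was 2.23 to 2.74 times the lowest in Mup3, Mup20 and Mup21. In the 7 central members this ratio ran from 1.38 in Mup1 to 178 in Mup11. In females the ratio was 3.41 to 4.63 in the 3 peripheral members and 4.26 to 1800 in the 7 central members. Summed, the 7 central members varied 1.98-fold over the 6 male libraries, which is close to the 2.23-fold of the summed peripheral members, and 26.5-fold over the 6 female libraries, against 4.29-fold. Whether single central members vary because of how reads were divided was not tested. Mup1, Mup7 and Mup12, which also share most of their windows, varied 1.38- to 2.68-fold in males. In females the same genes varied 7.94-fold (Mup1), 1800-fold (Mup7) and 13.2-fold (Mup12).

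**Figure D4:**
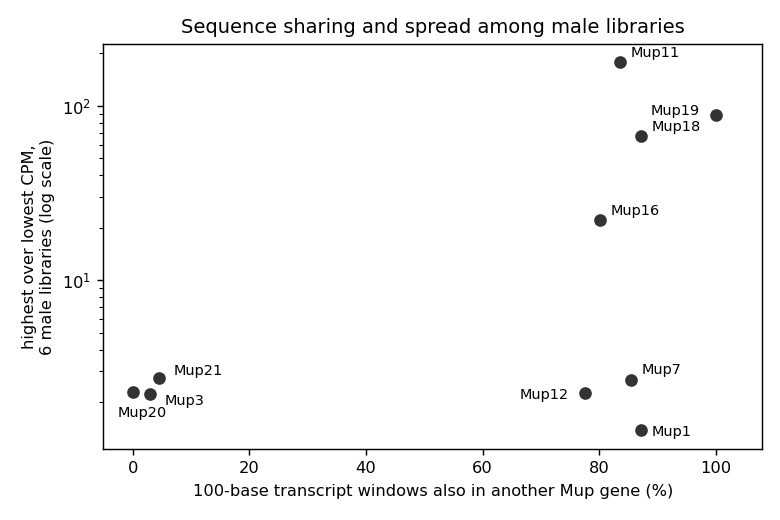
Share of 100-base transcript windows that also occur in another Mup gene (percent) against the ratio of the highest to the lowest CPM over the 6 male libraries (log axis), 1 point per gene. The 3 peripheral genes lie at 4.50% shared windows or less with ratios of 2.23 to 2.74, and the 7 central genes lie at 77.5% or more with ratios from 1.38 to 178.

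Males were then compared with females within each line, with edgeR's quasi-likelihood test over all 14003 genes and a call at a Benjamini-Hochberg adjusted p under 0.05. Both comparisons reuse the female libraries whose KO and WT values helped to choose the genes. The larger sex difference in KO than in WT mice is therefore not independent of that choice. In KO mice 8 of the 10 genes were called higher in males, where 2.95% of all tested genes were called higher. In WT mice 7 of 10 were called higher in males, against 2.10% of all tested genes, and no member was called lower in males in either line, where 2.45% of all genes in KO and 2.39% in WT mice were. The median log2 fold change over the 10 genes was 5.57 in KO and 4.22 in WT mice, beside -0.04 and -0.01 over all genes tested. All 3 male libraries lay above all 3 female libraries for 9 of the 10 genes in KO mice, where this held for 14.0% of tested genes, and for 7 of 10 in WT mice, where it held for 13.4%.

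Mup21 had the largest sex difference of the 10 genes, 9.32 ± 0.41 in KO mice (log2 fold change ± SE, adjusted p = 1.22e-08) and 7.46 ± 0.38 in WT mice (adjusted p = 4.12e-08). Mup20 differed by 6.77 ± 0.42 in KO mice (adjusted p = 2.81e-07) and 5.73 ± 0.40 in WT mice (adjusted p = 7.50e-07). Mup3, with the smallest difference of the 3 peripheral members, differed by 4.64 ± 0.44 in KO mice (adjusted p = 1.90e-05) and 3.22 ± 0.41 in WT mice (adjusted p = 0.000292). Among central members, Mup1 differed by 5.51 ± 0.38 in KO mice (adjusted p = 8.56e-07) and 3.91 ± 0.35 in WT mice (adjusted p = 1.08e-05), and Mup12 by 5.47 ± 0.60 in KO mice (adjusted p = 7.55e-05) and 4.37 ± 0.57 in WT mice (adjusted p = 0.000343). These 5 genes were called in both lines under all 20 alternative settings tried.

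The other central members gave calls that turned on single libraries. In KO mice Mup7 was higher in males by 7.20 ± 1.42 (adjusted p = 0.00883), Mup19 by 8.96 ± 1.79 (adjusted p = 0.00938) and Mup16 by 5.63 ± 1.13 (adjusted p = 0.00961) on the log2 scale. Without female KO replicate 2 the adjusted p of Mup7 was 0.0509, without female KO replicate 1 that of Mup16 and of Mup19 was 0.0623, and without female KO replicate 3 that of Mup19 was 0.0542. In WT mice Mup7 was higher in males by 4.85 ± 1.27 (adjusted p = 0.0483), a call that held in 2 of the 12 fits that left out 1 library, those without female KO replicate 1 and without male KO replicate 2. Mup11 was higher in WT males by 5.37 ± 1.42 (adjusted p = 0.0495). This rested on male WT replicate 3, without which its log2 fold change was 0.39 (adjusted p = 0.594), and the call held in 3 of those 12 fits, those without male KO replicate 2, male WT replicate 1 or male WT replicate 2.

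In WT mice Mup19 (4.06, 95% interval 1.03 to 7.09, adjusted p = 0.127) and Mup16 (1.35, interval -0.68 to 3.38, adjusted p = 0.396) were not called. Without female WT replicate 3, which holds the 153 CPM of Mup19, the difference of Mup19 was 6.93 (adjusted p = 0.0371). Mup18 was called in neither line, at 0.59 in KO mice (interval -1.47 to 2.65, adjusted p = 0.733) and -1.20 in WT mice (interval -3.24 to 0.84, adjusted p = 0.452). Mup11 was not called in KO mice, at 1.60 (interval -1.17 to 4.37, adjusted p = 0.468), though its 3 male KO values all lay above its 3 female KO values, and without male WT replicate 3 it was called there (adjusted p = 0.0442).

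**Figure D5:**
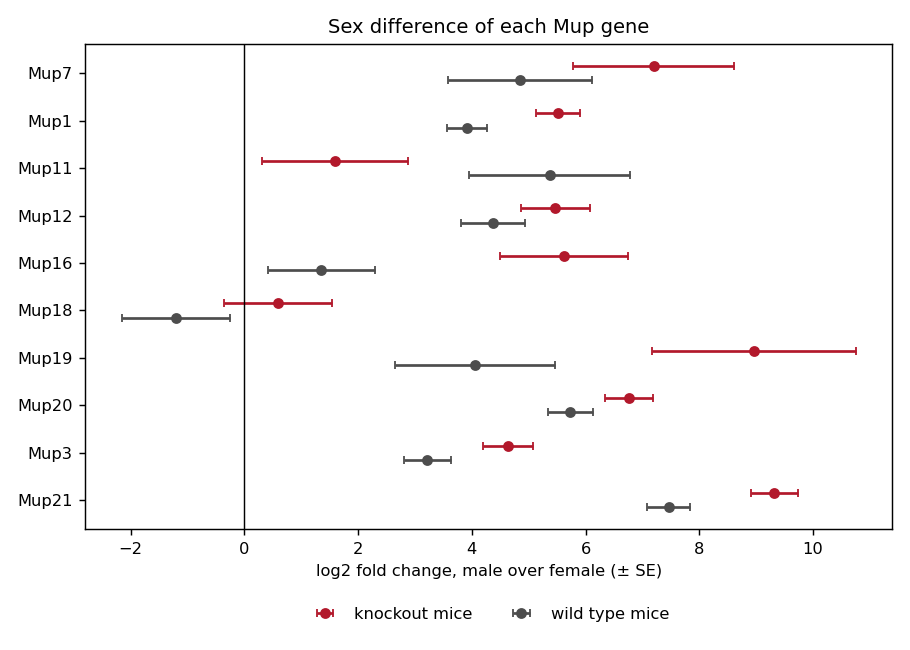
Log2 fold change of males over females (points, with SE as bars) for each Mup gene, in knockout and in wild type mice. Mup21 has the largest value in both lines (9.32 in KO and 7.46 in WT mice), and Mup18 lies near 0 or below it (0.59 and -1.20).

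No member was called by edgeR between KO and WT males, where 8 of the 14003 tested genes were called in all (0.0571%), and the groups overlapped for all 10 genes. Over all tested genes, KO males lay wholly above WT males for 5.10% and wholly below them for 4.52%. The median log2 fold change of the 10 genes was -0.07, beside -0.003 over all genes. The intervals were narrower for the peripheral members and for Mup1 than for the other central members, but do not exclude changes of the sizes they span. Mup3 differed by -0.001 (95% interval -0.81 to 0.81), Mup20 by 0.01 (interval -0.69 to 0.70), Mup21 by 0.56 (interval -0.04 to 1.17) and Mup1 by -0.14 (interval -0.82 to 0.53) on the log2 scale. Mup12 differed by -0.28 (interval -1.34 to 0.79) and Mup7 by 0.18 (interval -2.15 to 2.52). At an unadjusted p under 0.05, which 4.84% of all genes met, 2 members passed: Mup11 (-4.92, adjusted p = 0.644) and Mup18 (-2.42, adjusted p = 0.968). Without male WT replicate 3 the value of Mup11 was 0.06, and that of Mup18 was -0.97.

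For KO and WT females the values are given as a description, since they helped to choose the genes. All 10 had a negative log2 fold change, and 8 were among the genes called lower in KO, which were 18.8% of all tested genes; Mup7 and Mup11 were not. For 8 of the 10 every KO library lay below every WT library, as in 27.1% of tested genes, and the exceptions were Mup7 and Mup12. The largest differences were those of Mup19 (-5.30), Mup18 (-4.21) and Mup16 (-3.64), members with shared sequence. The WT values of Mup16 and Mup19 included 1 library far above the others, and those of Mup18 ran from 42.6 to 692 CPM. These 3 genes were followed by Mup7 (-2.17), Mup1 (-1.75), Mup3 (-1.42), Mup12 (-1.38), Mup21 (-1.29), Mup11 (-1.15) and Mup20 (-1.02). The 3 peripheral members, whose reads are distinct, lay between -1.42 and -1.02.

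Several measures moved with the female groups. The number of members called was 0 without female KO replicate 2, when 4 genes were called in all, and 0 without female WT replicate 2, when 5 genes were called in all. It was 5 without female KO replicate 1 (4227 of 14219 genes called in all), without female KO replicate 3 (2909 of 14346) or without female WT replicate 3 (2927 of 14423). The slope of a library's log2 CPM on log2 gene length, relative to the mean of all libraries, was 0.187 ± 0.102 in female KO and -0.191 ± 0.0436 in female WT libraries (SD, n = 3 each) without overlap, so short genes such as the Mup genes (677 to 1584 bases) read lower relative to long ones in female KO libraries. With that slope as a covariate, 0 members were called, where 10 of 14003 genes were called in all. The log2 fold change was then -0.15 for Mup3, -0.10 for Mup20 and -0.27 for Mup21. Among the central members it was -2.01 for Mup1, -1.89 for Mup7, -1.13 for Mup12, -3.03 for Mup16, -2.50 for Mup18, -2.25 for Mup19 and 1.71 for Mup11. In females the slope and the genotype cannot be told apart. Summed hepatocyte markers overlapped between the groups (99180 to 100238 CPM in KO and 83432 to 111591 CPM in WT libraries). Cholangiocyte markers were lower in KO (22.4 to 34.1 against 42.3 to 50.1 CPM in WT) and endothelial markers higher (184 to 232 against 132 to 161 CPM in WT), and their part in the result was not tested.

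The effect of genotype on the Mup genes was set side by side in both sexes, again as a description. The male effect minus the female effect was positive for 9 of the 10 genes, with Mup11 the exception, and its median was 1.70 on the log2 scale, beside -0.03 over all genes. It was 1.86 for Mup21, 1.60 for Mup1, 1.42 for Mup3 and 1.03 for Mup20. Over the whole table edgeR called 0 genes for this difference, while 22.5% had an unadjusted p under 0.05 and DESeq2 called 58 genes, and nothing is read from these counts for the members.

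Regulators of the Mup genes were read from a list of 24 genes of growth hormone signalling and hepatic transcription factors, all measured. None of them was called between KO and WT males. In females 7 were called higher in KO and none lower, where 36.5% of all genes were called in either direction. Stat5b, which carries the growth hormone signal to DNA, had 51.1, 68.9 and 58.0 CPM in female KO against 27.0, 27.5 and 29.7 CPM in female WT libraries (log2 fold change 1.08, SE 0.22, adjusted p = 0.0139). Bcl6, a repressor that competes with STAT5 and is male-biased in mouse liver, had 19.5, 11.4 and 5.02 CPM in female KO against 3.02, 2.87 and 5.53 CPM in female WT libraries (1.66 ± 0.41, adjusted p = 0.0145), and these groups overlapped. Cux2, a female-specific transcription factor that represses male-biased genes, had 71.2, 72.9 and 59.8 CPM in female KO against 24.7, 16.7 and 42.3 CPM in female WT libraries (1.29 ± 0.33, adjusted p = 0.0152). These 3 regulators are long genes (Stat5b 5539, Bcl6 6700 and Cux2 10082 bases), and the female KO libraries, in which long genes read higher relative to short ones, are those in which they were higher and the short Mup genes lower. With the length slope as a covariate 10 genes of the table were called in females, and whether the levels of regulators and Mup genes are linked was not tested. Zhx2, a factor that acts on Mup expression in mouse liver, was not called in either sex, at 0.77 in females (95% interval -0.01 to 1.56) and 0.32 in males (interval -0.45 to 1.09).

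Between the sexes, the same list held 1 gene higher and 4 lower in KO males, and 1 higher and 3 lower in WT males. Over all tested genes 2.95% were called higher and 2.45% lower in KO males, and 2.10% higher and 2.39% lower in WT males. Cux2 had a log2 fold change of males over females of -8.48 in KO mice (adjusted p = 2.51e-07) and -7.93 in WT mice (adjusted p = 6.88e-07). Prlr, the prolactin receptor gene, had -2.78 in KO mice (adjusted p = 2.62e-06) and -2.04 in WT mice (adjusted p = 3.48e-05). The gene called higher in males was Ghr, the growth hormone receptor, in KO mice (0.95, adjusted p = 0.0185) and Bcl6 in WT mice (2.21, adjusted p = 0.00610). Ghr had 0.57 in WT mice (adjusted p = 0.153) and Bcl6 -1.22 in KO mice (adjusted p = 0.0989), neither of them called.

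The sex difference of the Mup genes stood beside that of other growth hormone-dependent genes. Of 23 measured genes of a list of male-biased liver genes, 23 were called higher in males in KO and 21 in WT mice, with median log2 fold changes of 3.46 in KO and 3.23 in WT mice, beside the 5.57 and 4.22 of the Mup genes. Cyp4a12a, a fatty acid hydroxylase, had at least 401 CPM in every male library and at most 0.293 CPM in any female library (adjusted p = 6.73e-08 in KO and 6.60e-08 in WT mice). C6, a complement component, differed by 4.90 in KO (adjusted p = 1.22e-08) and 5.27 in WT mice (adjusted p = 6.92e-09). Of 26 measured female-biased genes, 24 were called lower in males and 1 higher in KO mice, and 23 lower and 1 higher in WT mice. Slc22a26, an organic anion transporter of the female liver, had at most 0.217 CPM in any male library and at least 186 CPM in every female library (adjusted p = 4.68e-10 in KO and 2.04e-10 in WT mice). No male-biased gene was called between KO and WT males. In females 4 were called higher and 7 lower in KO, among them Cyp2u1 at 2.10 (adjusted p = 0.0132), Cyp7b1 at -1.11 and Gstp1 at -0.88 (adjusted p = 0.0140 for both). Of the female-biased genes, 2 were called higher and none lower in KO males, Cyp4a10 (2.78, adjusted p = 0.00497) and Cyp4a14 (4.44, adjusted p = 0.00654), which encode fatty acid hydroxylases. In females 2 female-biased genes were called higher and 10 lower in KO. The female counts stand beside the 36.5% of all genes called in that comparison. The counts between the sexes stand beside 5.40% of all genes in KO and 4.49% in WT mice, called in either direction.

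Tested genes outside the family, without the least abundant and without Gm and Rik symbols, were compared with the summed Mup level. Those whose profile over the 12 libraries lay nearest to it, measured as the root mean square difference of centred log2 CPM, were Cyp7b1 (0.51), Slc22a28 (0.57), Elovl3 (0.66), Nox4 (0.68) and Ces2b (0.84). The median of this measure over the genes compared was 2.53. Among the Mup genes themselves this measure was 0.40 for Mup1, 0.43 for Mup12, 0.54 for Mup3 and 0.95 for Mup20. It was 1.32 to 2.96 for the other 6, so several genes outside the family lay nearer to the family's sum than most of its members. Those genes were picked as the nearest of all genes compared, and Ces2b had at most 0.128 CPM in any female library. Cyp7b1, an oxysterol hydroxylase, had 927, 981 and 973 CPM in male KO and 864, 1334 and 1498 CPM in male WT libraries. In females it had 29.9, 38.6 and 50.2 CPM in KO and 69.8, 97.3 and 89.0 CPM in WT libraries. Elovl3, a fatty acid elongase, had 102, 43.9 and 61.9 CPM in male KO and 65.0, 61.6 and 77.6 CPM in male WT libraries, and 1.29, 1.39 and 2.82 CPM in female KO against 2.69, 3.57 and 2.96 CPM in female WT libraries, with overlap between the female groups. These likenesses are a description over 12 libraries that share the 4 groups.

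Other genes of the lipocalin family went in both directions between the sexes. Of 17 other lipocalin genes, 10 were measured. In KO mice 2 were called higher and 3 lower in males, and in WT mice 1 was called higher and 2 lower in males. The shares over all tested genes were 2.95% higher and 2.45% lower in KO, and 2.10% higher and 2.39% lower in WT mice. Obp2a, an odorant-binding lipocalin, was called higher in males in KO (adjusted p = 0.000184) and in WT mice (adjusted p = 3.75e-06). It had 2.91, 5.72 and 8.16 CPM in male KO and 42.2, 132 and 35.5 CPM in male WT libraries, and at most 0.0643 CPM in any female library. It was also called lower in KO than in WT males (-3.64 ± 0.52, adjusted p = 0.0139). Rbp4, the plasma carrier of retinol, was the other gene called higher in KO males than in KO females. In females 5 of the 10 were called lower in KO and none higher. Among these 5 were Orm3 (-1.25, adjusted p = 0.0132) and Orm1 (-1.58, adjusted p = 0.0145), which encode acid glycoproteins of plasma. In that comparison 18.8% of all genes were called lower, and 4 genes were called in all without female KO replicate 2.

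Of 23 tested genes outside the family that lie in the cluster or within 1 Mb of it, 1 was called in each sex comparison, a share near that over all tested genes (5.40% in KO and 4.49% in WT mice called in either direction). In KO mice this was Gm13773, a long noncoding RNA inside the cluster on the plus strand (60458840 to 60477168, next to Mup1), which had 0.702, 0.434 and 0.699 CPM in male KO libraries and 0 CPM in all 3 female KO libraries (adjusted p = 0.0113). In WT mice it was Hsdl2, a peroxisomal protein gene, at -0.73 (adjusted p = 0.0143). Snx30 (59805840 to 59904737), the nearest tested gene before the cluster, had -0.58 in KO (95% interval -1.22 to 0.06) and -0.09 in WT mice (interval -0.75 to 0.56). Slc31a2 (62180799 to 62216648), a copper transporter gene and the nearest after it, had 0.01 in KO (interval -0.46 to 0.49) and -0.57 in WT mice (interval -1.04 to -0.10, adjusted p = 0.160). No neighbour was called between KO and WT males. In females 1 was called higher and 6 lower in KO, where 36.5% of all tested genes were called in either direction and 4 genes in all without female KO replicate 2.

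Promoter sequence from RefSeq (GRCm38.p6) was at hand for 6 of the 10 genes, and 3 are shown because the pair Mup3 and Mup21 had the smallest and the largest sex difference of the peripheral members while Mup19 stands for the central ones. Each is the 250 bases before the annotated start, 5′ to 3′ on the minus strand, with the letters TATATAA in capitals where they occur.
Mup3, chr4:62087318-62087567: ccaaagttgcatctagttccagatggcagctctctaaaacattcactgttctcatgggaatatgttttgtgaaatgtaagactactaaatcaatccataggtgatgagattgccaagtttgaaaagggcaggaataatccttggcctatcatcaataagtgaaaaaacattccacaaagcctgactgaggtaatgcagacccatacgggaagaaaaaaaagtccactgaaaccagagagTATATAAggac
Mup21, chr4:62150842-62151091: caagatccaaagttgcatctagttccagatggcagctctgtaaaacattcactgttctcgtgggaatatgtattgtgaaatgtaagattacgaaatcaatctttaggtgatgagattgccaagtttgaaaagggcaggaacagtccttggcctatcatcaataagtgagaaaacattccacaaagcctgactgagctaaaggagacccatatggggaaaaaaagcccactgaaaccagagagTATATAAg
Mup19, chr4:61782225-61782474: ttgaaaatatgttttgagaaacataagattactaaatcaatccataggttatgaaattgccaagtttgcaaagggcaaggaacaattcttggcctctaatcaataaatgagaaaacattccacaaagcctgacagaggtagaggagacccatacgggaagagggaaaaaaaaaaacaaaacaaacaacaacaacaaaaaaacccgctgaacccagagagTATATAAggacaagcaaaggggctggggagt
The windows of Mup3 and Mup21 were 89.1% identical, although the sex difference of Mup21 was larger by 4.68 on the log2 scale in KO and by 4.24 in WT mice. Those of Mup18 and Mup19 were 88.4% identical. TATATAA, searched on both strands, was present in 4 of the 6 windows (Mup3, Mup18, Mup19 and Mup21) and in 3.04% of 32851 promoter windows of the same length. The window of Mup11 stops inside, and that of Mup7 before, the stretch that holds TATATAA in Mup19. Its absence from these windows therefore depends on where the annotated starts lie. The letters TTCNNNGAA, the form bound by STAT5, were present in 0 of the 6 windows and in 7.02% of all. A match or its absence describes these windows only.

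The 12 other Mup genes gave calls in one direction only between the sexes, although most of their values in WT mice did not pass. In KO mice 6 of them were called higher in males and none lower, and in WT mice 3 were called higher and none lower, with median log2 fold changes of 3.74 in KO and 1.93 in WT mice, where 2 of the 12 were below 0. Over all tested genes 2.95% in KO and 2.10% in WT mice were called higher in males. None of the 12 was called between KO and WT males. With their counts added, all Mup genes together held 3.90% to 7.82% of the counts in male libraries and 0.0630% to 0.609% in female libraries, and the 10 genes held 65.6% to 94.0% of all Mup gene counts. Mup22 and Mup15, both central genes, differed widely between libraries of one group, with 207, 1723 and 4688 CPM of Mup22 in male KO and 770, 119 and 9533 CPM in male WT libraries. Mup15 had 94.3, 2687 and 2234 CPM in male KO and 2023, 289 and 6900 CPM in male WT libraries.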

How the data were processed

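The authors deposited raw counts per gene for 12 liver libraries, all whole numbers. HISAT2 2.0.5, DESeq2 and mm39 are named in the submitters' processing notes. How reads were counted, and with which strand setting, was not given in the sources used here. Genes were kept by edgeR's filterByExpr. Tests used edgeR 4.0.16 under R 4.3.3 (TMM scaling, 1 mean per group, all 12 libraries, quasi-likelihood F test, 8 residual degrees of freedom), with p-values adjusted by the Benjamini-Hochberg method over 14003 genes. Standard errors were derived from the fold change and F, and are approximate. The biological coefficient of variation was 25.9%. Alternatives were RLE factors, library totals, Mup rows left out of totals, no filter, a replicate block, the length slope as a covariate, only the groups compared, each library left out, and DESeq2 1.42.0. The members and gene lists were chosen with earlier results of these data known. Named genes were all members, up to 3 called genes of smallest adjusted p per list and comparison, the 5 genes nearest to the summed profile and the nearest neighbours; others (Stat5b, Zhx2 and Ghr where not called, Rbp4, Mup15 and Mup22) are given for a sentence that turns on them. Replicate numbers did not pair samples: 12 correlations of same-numbered deviations ran from -0.61 to 0.057.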

Additional observations from a re-analysis of the deposited data

How the results depend on the processing

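Members called in female KO against WT numbered 8, where 5116 of 14003 genes were called. They numbered 0 with the length slope as a covariate (10 genes called) and 0 to 8 when 1 library was left out. In males the number was 0, and 0 to 0 with 1 library left out. With no filter on low counts it was 2 in males (of 101 genes called), Mup11 and Mup18, whose highest male values were both in male WT replicate 3. For the difference between sexes the number was 0, but 9 with no filter (of 1451 genes) and 1 with DESeq2 (of 58), and 0 to 0 with 1 library left out. For males over females it was 8 in KO mice (of 756 genes called, and 6 to 9 with 1 library left out). In WT mice it was 7 (of 629, and 5 to 7). The log2 ratios of sums with 1 library left out ran from 5.31 to 5.95 (male over female, KO), 3.48 to 4.12 (male over female, WT), -0.37 to 0.29 (KO over WT, males), -2.18 to -1.55 (KO over WT, females) and 1.54 to 2.19 (difference). With the replicate block, the members called were 6 in females, where all genes called were 3365 against 5116. They were 0 in males (of 6 genes called) and 0 for the difference (of 0). For sex they were 8 in KO mice (of 507 genes called) and 5 in WT mice (of 415). The cause of these shifts was not tested. With 3 libraries a group and shared sequence, single central members carry the least certain values.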

Other observations

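Pseudogenes of the Mup family, named here after their values were seen, went the other way from the Mup genes between the sexes where they lie on the plus strand. Of 27 pseudogene rows 8 were tested, 7 on the plus strand and 1, Mup-ps19, on the minus strand. Between the sexes, 4 of the 7 on the plus strand were called lower in males in KO mice and 5 in WT mice, and none higher, with medians of -1.96 and -2.69 on the log2 scale. Over all tested genes 2.45% in KO and 2.39% in WT mice were called lower in males. Summed, these 7 rows had 13.3 to 52.5 CPM in male KO and 23.4 to 47.1 CPM in male WT libraries, against 46.9 to 63.7 CPM in female KO and 77.4 to 160 CPM in female WT libraries. Mup-ps2 (60155274 to 60157966) had 0.648, 1.09 and 0.699 CPM in male KO and 0.843, 1.29 and 1.43 CPM in male WT libraries. It had 6.94, 3.61 and 4.25 CPM in female KO and 7.65, 12.9 and 14.9 CPM in female WT libraries. Mup-ps19 had the direction of the genes, at 6.18 in KO and 5.86 in WT mice, both called. In KO against WT females 6 of the 7 on the plus strand were called lower in KO and none higher (median -1.42). Mup-ps19 had -0.61, uncalled, so there the pseudogenes had the sign of the genes. In that comparison 18.8% of all tested genes were called lower. All genes called there fell to 4 without female KO replicate 2 and to 10 with the length slope as a covariate. The strand setting was not given in the sources used here, so reads from either strand cannot be told apart.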
